A study of Mus musculus with 2 samples.

Results

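The miRNAs of the imprinted Dlk1-Dio3 cluster were examined in cultures grown from mouse bone marrow as a model of myeloid-derived suppressor cells (MDSCs), which are immature cells of the myeloid line that dampen T cell responses. Members were the mouse names on the array whose number belongs to the cluster, taken from a fixed list of miRNA numbers that includes miR-3070 and miR-3072. The list held 101 of the 1080 names on the array. Marrow cells of C57BL/6 mice grew for 4 days, in 5% serum, with the myeloid growth factor GM-CSF at 40 ng/ml. The culture of the other group received IL-6, an inflammatory cytokine, in addition, at the same concentration. No cells without GM-CSF were measured, and the labels do not say how many mice gave the marrow. Each culture had 1 single-colour Agilent array, so no difference below has a replicate check or a p-value.

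The Dlk1-Dio3 region is imprinted: its non-coding RNAs, among them Meg3, Rian and Mirg, are made from the maternal chromosome, and the protein-coding genes Dlk1, Rtl1 and Dio3 mainly from the paternal one. Its many miRNAs are cut from the maternal transcripts, and the cluster is best known for its expression in brain, placenta and embryo. In mice the cluster's miRNAs have also been reported to restrain PI3K-mTOR signalling in blood stem cells of the fetal liver, and miR-127, miR-136, miR-431, miR-433 and miR-434 lie antisense to Rtl1 and can pair with its mRNA.

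In RefSeq (GRCm38.p6) the hairpins of all 101 names lay on chromosome 12, between chr12:109563692 and chr12:109747960, in 52 hairpin genes. This stretch lies between Dlk1 (chr12:109452485-109463336) and Dio3 (chr12:110279230-110281097), as the label of the cluster says. The widest gap between neighbouring hairpins was 90.7 kb, from Mir370 to Mir379. It divided the names into a side near Meg3 and Rtl1 with 31 names and a side near Mirg with 70 names. Within the annotated spans of genes in the region lay 2 names in Meg3, 23 in Rtl1, 6 in Rian and 18 in Mirg, and 52 lay in none of these. The table gives spans only, so exon and intron were not assigned.

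Mature sequences were matched in RefSeq for 97 of the 101 names. The sequences of the detected names are shown together with those of miR-3070a-3p and miR-494-3p. The first of these is the near copy of miR-3070b-3p, and miR-494-3p comes from the same cluster but is not on the list. Each is written 5′ to 3′ with the seed, bases 2 to 8, in capitals.
miR-3070a-3p: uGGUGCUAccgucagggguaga
miR-3070b-3p: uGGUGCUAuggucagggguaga
miR-433-5p: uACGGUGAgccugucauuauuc
miR-1188-3p: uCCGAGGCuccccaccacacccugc
miR-370-3p: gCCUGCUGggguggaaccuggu
miR-1197-5p: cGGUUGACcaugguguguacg
miR-494-3p: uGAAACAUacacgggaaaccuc
miR-539-5p: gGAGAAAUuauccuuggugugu
miR-382-5p: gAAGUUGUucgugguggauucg
miR-134-5p: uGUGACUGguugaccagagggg
miR-485-3p: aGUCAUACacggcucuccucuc
miR-3072-5p: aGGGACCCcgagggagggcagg

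The order is that of the hairpins along the chromosome. All 12 are on the plus strand. The detected miR-487b-3p is named only. Among the detected members no seed was shared. The seed of miR-3070b-3p was shared with miR-3070a-3p and that of miR-1197-5p with the undetected miR-758-5p, and the other 8 detected members with a sequence shared theirs with no matched mouse name on the array. Longer runs were shared in part: miR-485-3p and miR-494-3p had a run of 9 bases in common (cauacacgg, which begins within the seed of each), and miR-1197-5p and miR-134-5p another of 9 bases (gguugacca).

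Most of the cluster was not detected in either culture. The scanner software called 10 of the 101 names detected with GM-CSF plus IL-6 and 8 with GM-CSF only. Over all 1080 names on the array the shares detected were 28.5% and 27.9%. On both arrays 7 members were detected, or 6.93%, against 27% of all names (292 of 1080) and 27.6% of mouse names. The corresponding count for the multicopy miRNA names of Sfmbt2, another imprinted mouse cluster, was 21 of 61. That set was taken by miRNA number, with no check of hairpin position. All of these are shares of names within single arrays and carry no test. In a bulk culture, fewer cells that make a miRNA and less of it per cell cannot be told apart.

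The signal of a miRNA is the sum of its deposited probe totals over its 1 to 4 probes. The scanner software derives these totals from background-subtracted intensities of 40 replicate spots. They are not plain sums of the spot intensities, so signals and spot values below are on different scales. The 90 members detected on neither array had signals from -3.14 to 7.01 (median -0.69) with IL-6 and from -3.34 to 6.96 (median -0.28) without it. At or below 0 were 60 of the 90 with IL-6 and 51 without it. Of their 3600 spots, 7 were well above background with IL-6 and 2 without it, and of 1000 negative control spots on each array 7 and 4 were. The highest signals among these undetected names were those of miR-431-3p (7.01 with IL-6 and 6.96 without), miR-668-3p (5.56 and 6.88) and miR-341-3p (5.53 and 4.37). Well-known members of the cluster were among the 90, including miR-127-3p (1.63 and 2.75), the brain-expressed miR-379-5p (-1.94 and -1.98) and miR-410-3p (-0.88 and -1.51).

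Detected members lay on both sides of the gap. On the Meg3 and Rtl1 side 4 of 31 names were detected on at least 1 array, and on the Mirg side 7 of 70. Over all names on the array the same count was 317 of 1080. In no hairpin were both arms detected: 11 of the 52 hairpins had 1 arm detected, which was the 3p arm in 5 cases and the 5p arm in 6. Along the 52 hairpins, 6 of these 11 lay next to another detected one, as the pairs Mir1188 and Mir370, Mir487b and Mir539, and Mir382 and Mir134. The other 5 had no detected neighbour among them. For Mir3070b, Mir299a and Mir299b the list held 1 arm alone, so both arms could not be detected. Neither the arms nor the neighbours were compared with other hairpins on the array, and no test was made.

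**Figure D1:**
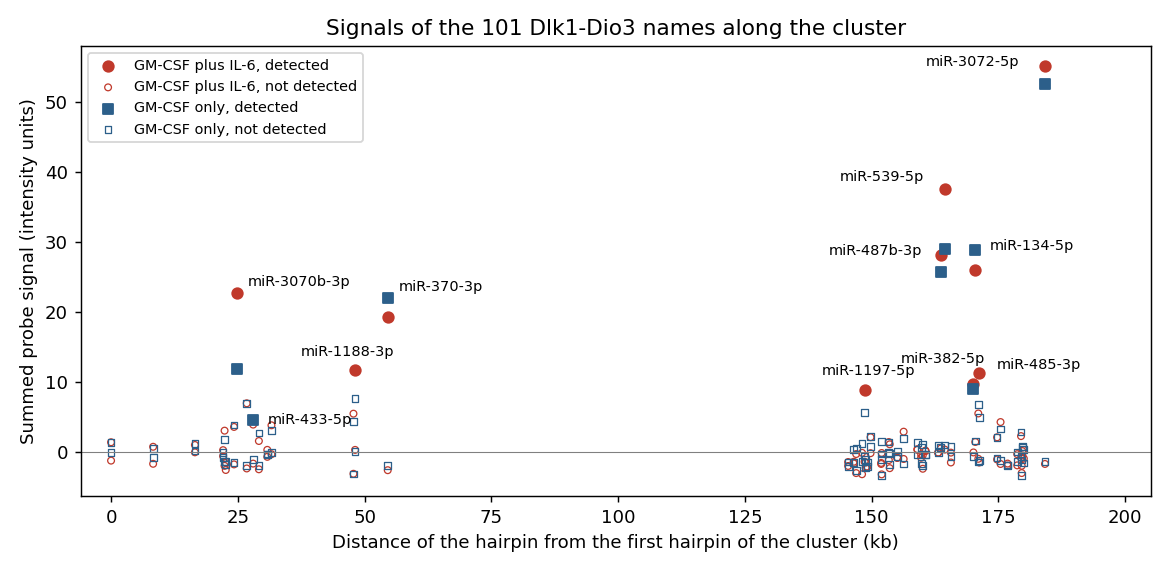
Summed probe signal (intensity units) of the 101 names against the distance of their hairpin from the first hairpin of the cluster (kb), for the array with GM-CSF plus IL-6 (circles) and with GM-CSF only (squares). Filled symbols are names called detected; the 11 detected on at least 1 array are named, and the 90 others lie between -3.34 and 7.01.

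The detected members differed from the undetected ones in base composition to a small degree. The 10 detected members with a sequence had a GC content from 40.9% to 77.3% (median 55.8%), and the 87 undetected ones from 23.8% to 76.2% (median 50%). Of 50 members with at most 50% GC, 3 were detected on at least 1 array (6%), of 28 with over 50% and up to 60%, 4 (14.3%), and of 19 with over 60%, 3 (15.8%). The same shares among the other mouse names with a matched sequence were 27.5% of 414, 30.3% of 165 and 42.7% of 124. In each class of GC content the members' share was thus below that of these other mouse names. No test was made of these shares.

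The design asks how IL-6, added to GM-CSF, altered these miRNAs. Among the 7 members detected on both arrays, miR-3070b-3p was 1.99-fold higher with IL-6, miR-539-5p was 1.36-fold higher, and the other 5 differed less. Signals were scaled by the upper quartile of the 292 miRNAs that both arrays detected (160 with IL-6 and 182 without). After this scaling the log2 ratios of all 292 had a median of 0.12, which was subtracted to give the relative log2 ratios used below. A fold of 1.5 on this relative scale took the place of a test. It was reached upward by 1 of the 7 members, against 3.42% of the 292 miRNAs, and downward by 0 of the 7, against 0% of the 292. At 2-fold it was 0 of the 7, against 1.03% upward and 0% downward among the 292, and at a log2 ratio of 0.32 it was 2 upward, against 12.3%, and 0 downward, against 0.685%. The median of the 7 was 0.16, with 5 above and 2 below the median of all, which is 0 by construction. The middle range of all 292 ran from -0.09 to 0.16 (quartiles). Only 1 of the 7 members reached the median level of the 292, and the shares above were not matched for level.

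Errors are given in 2 ways. The spot standard error covers the scatter of replicate spots within the arrays. The deposited error is the scanner software's own error of each probe total, combined over probes and arrays, and it was larger for every one of the 7. Neither covers variation between cultures.

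miR-3070b-3p (chr12:109588648-109588669, within the annotated span of Rtl1) has no role in these cells known well enough to state. Its signal was 22.7 with IL-6 and 11.9 without it. The relative log2 ratio was 0.995 ± 0.07 (spot SE) or ± 0.29 (deposited error), which ranked 4 among the 292. All 3 of its probes were higher with IL-6, with relative log2 ratios from 0.90 to 1.11. With IL-6, 37 of its 40 spots were well above background, and without IL-6, 3 of 40. Spots not marked as outliers ran from 19.9 to 38.8 (median 29.2) with IL-6 and from 7.43 to 28.4 (median 16.2) without it, so the ranges of single spots overlapped. The quartiles did not: they were 25.4 and 34.1 with IL-6 and 12.1 and 18.9 without it. For negative control spots the central 95% ran from -4.93 to 11.4 and from -4.56 to 10.6.

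Its size depended on which of the deposited columns was read. The software counts a name as detected if at least 1 probe total exceeds 3 times its error, a rule that gave the deposited flag for all 1080 names on both arrays. In the culture without IL-6 the first probe of miR-3070b-3p stood at 2.77 times its error and the other two at 3.69 and 3.66 times. In the authors' deposited table the relative log2 ratio was 1.48, the value that the sum over passing probes alone also gave. The deposited gene total gave -0.73 instead. On the array without IL-6 that total was 39.8, of which 8.56 came from the passing probes of miR-3070b-3p, and the excess of 31.3 equalled the gene total of miR-3069-3p, the preceding detected name. After normexp background correction with an offset of 50, which draws dim ratios toward 0 by construction, the value was 0.24.

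The copy miR-3070a-3p was not detected, at 3.64 with IL-6 and 3.91 in its absence. The mature sequences of the copies have 22 bases each and differ at 2 of them, C9U and C10G (the base of miR-3070a-3p, the position from the 5′ end, then the base of miR-3070b-3p). The positions lie just past the seed, which the copies share. The other arm, miR-3070a-5p, had signals of -1.72 and -1.41. The array names were tied to these sequences through the hairpin genes Mir3070a and Mir3070b. The probe sequences were not used here, so how well each probe tells the copies apart was not examined. The probes named for miR-3070b-3p gave the difference, and those named for the near copy were not called detected in either culture.

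**Figure D2:**
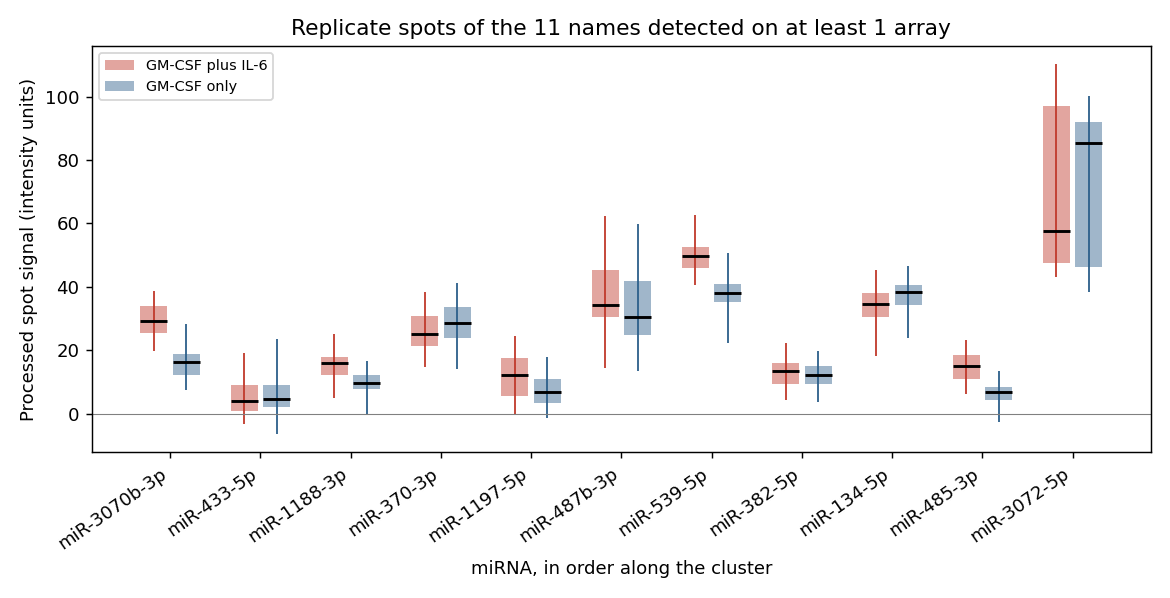
Processed spot signal (intensity units) of the 11 names detected on at least 1 array, in order along the cluster, with the probes of a name pooled and no scaling between arrays. Lines span the lowest to the highest spot without an outlier flag, boxes the middle quartiles, and black bars mark medians; for miR-3070b-3p the medians were 29.2 with IL-6 and 16.2 without it. Probes of unequal brightness give miR-3072-5p its wide boxes.

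miR-539-5p, on the Mirg side, gave a signal of 37.7 in the culture with IL-6 and 29.0 in the other. All 40 of its spots were well above background on both arrays. The relative log2 ratio was 0.44 ± 0.04 (spot SE) or ± 0.15 (deposited error), ranked 19 of 292. Its 4 probes gave between 0.37 and 0.51, all upward, and stayed under the 1.5-fold line. The ratio was 0.17 after normexp.

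miR-134-5p, known in rodent neurons as a regulator of the kinase Limk1 at dendritic spines, gave a signal of 26.0 in the culture with IL-6 and 28.9 in the other. Its relative log2 ratio was -0.09 ± 0.04 (spot SE) or ± 0.16 (deposited error). All 4 probes gave ratios slightly under 0, and the value became 0.03 before that median was subtracted. The levels of miR-134-5p in the cultures therefore differed by less than the deposited error.

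miR-370-3p gave a signal of 19.3 in the culture with IL-6 and 22.0 in the other, the lowest relative log2 ratio of the 7 at -0.12 ± 0.05 (spot SE) or ± 0.28 (deposited error). In human liver cells miR-370 has been reported to target the fatty acid oxidation enzyme CPT1A. Both of its probes had ratios under 0, and 27 of its 40 spots were well above background with IL-6 against 35 without it. The difference was again smaller than the deposited error.

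miR-3072-5p, from the hairpin farthest along the cluster, gave 55.1 with IL-6 and 52.7 in the other culture. It was the 1 member of the 7 at or above the median level of the 292 miRNAs. The relative log2 ratio was 0.13 ± 0.03 (spot SE) or ± 0.18 (deposited error).

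miR-487b-3p gave a signal of 28.2 in the culture with IL-6 and 25.8 in the other. The relative log2 ratio was 0.19 ± 0.08 (spot SE) or ± 0.23 (deposited error), with both probes upward.

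miR-382-5p was near the limit of detection, at 9.73 in the culture with IL-6 and 9.12 in the other. The relative log2 ratio was 0.16 ± 0.10 (spot SE) or ± 0.53 (deposited error). It was called detected through 1 of its 2 probes, at 3.28 times its error with IL-6 and 3.04 times without it. Of its 40 spots, 1 was well above background with IL-6 and 0 without it. For miR-487b-3p, miR-3072-5p and miR-382-5p alike, the ratio was within the deposited error of 0.

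**Figure D3:**
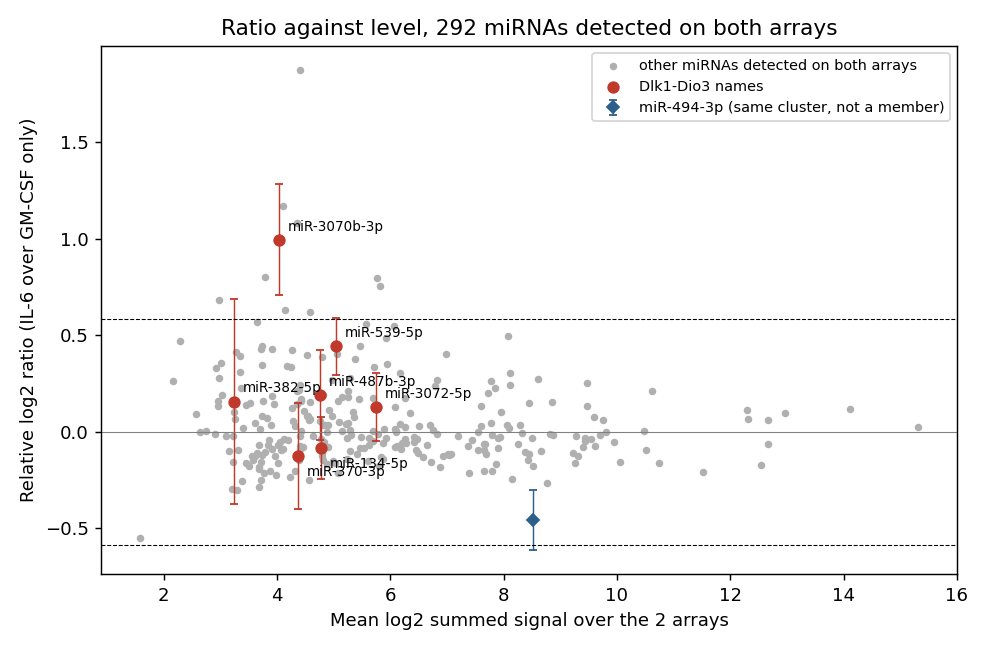
Relative log2 ratio (with IL-6 over without it) against mean log2 summed signal for the 292 miRNAs detected on both arrays. The 7 members are in red with bars of 1 deposited error, miR-494-3p is a blue diamond, grey points are the other miRNAs, and dashed lines mark 1.5-fold; miR-3070b-3p at 0.995 is the 1 member beyond them.

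miR-494-3p, from a hairpin between those of miR-329 and miR-679 on the Mirg side, has been reported in mice to be raised in MDSCs by tumour-derived TGF-beta. Its signal was 307 with IL-6 and 441 without it. The relative log2 ratio was -0.46 ± 0.02 (spot SE) or ± 0.16 (deposited error), ranked 291 of 292, and its probes gave -0.46 and -0.46. The arm miR-494-5p was not detected (0.62 and -0.49). The names of 1 cluster thus held rank 4 and rank 291 among 292 ratios, and no test of this difference could be made with 1 array per culture.

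Another 3 members were detected with IL-6 alone, against 1.48% of all 1080 names, and 1 with GM-CSF alone, against 0.833%. miR-485-3p gave a signal of 11.3 in the culture with IL-6 and 4.96 in the other. All 4 of its probes were higher with IL-6, and 2 of them passed 3 times their error there. miR-1188-3p had 11.8 and 7.65, and miR-1197-5p had 8.95 and 5.71, each with both probes higher and 1 probe past 3 times its error. The scaled ratios, here without subtraction of the median of all, were 2.60 for miR-485-3p, 1.74 for miR-1188-3p and 1.78 for miR-1197-5p. They set a detected value against the name's own undetected one and are no lower limits. Because these names were picked by a call with IL-6 alone, higher signals and probes there follow in part from that choice. The directions are therefore no separate evidence of a difference. Few of their 40 spots were well above background with IL-6, at 4, 5 and 3, and without IL-6 there were 0, 1 and 0. The name called with GM-CSF alone was miR-433-5p, with 4.57 against 3.97 with IL-6. After scaling, its signal without IL-6 was 1.01 times that with IL-6. Of its 4 probes 1 passed, at 3.004 times its error, and its probes pointed both ways.

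Being detected did not follow the signal alone. On the array without IL-6 the lowest detected signal was 3.73, and 7 undetected members were brighter than that. With IL-6 the lowest was 2.43, and 9 undetected members were brighter. For a member near these values, presence or absence of a call says only whether a single probe passed its own error limit.

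The members together held 0.171% of the detected mouse signal with IL-6 and 0.132% without it. These shares rest on 10 and 8 detected names. Over all mouse names, detected or not, the members held 0.153% and 0.144%, a smaller gap between the cultures. These shares also take in the 90 members detected on neither array, whose median signals were -0.69 with IL-6 and -0.28 without it. The 7 members detected on both arrays summed to 198.8 and 179.5 intensity units before scaling.

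**Figure D4:**
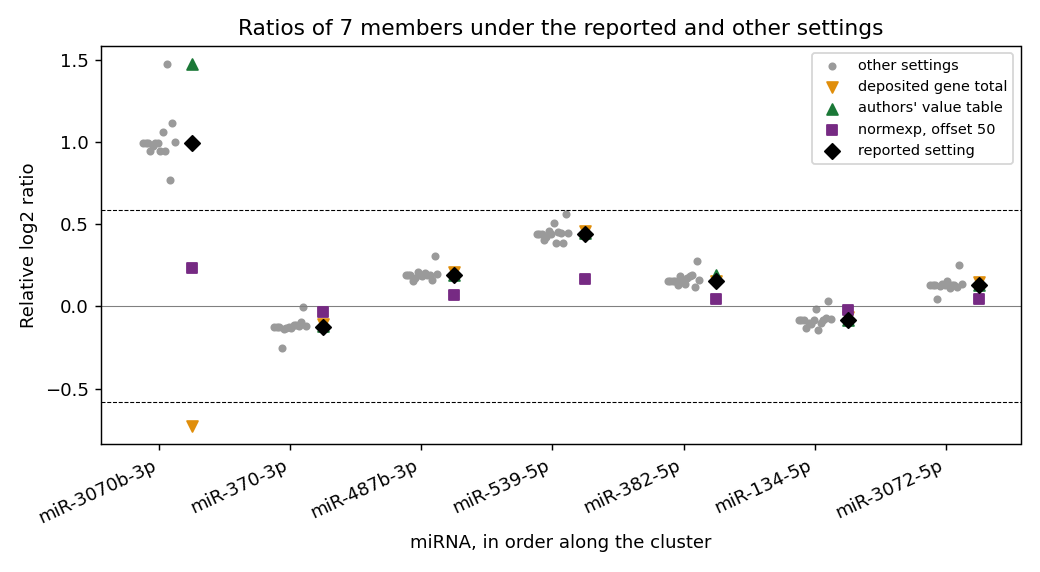
Relative log2 ratio of the 7 members detected on both arrays under the reported setting (black diamonds), 3 named alternatives (coloured symbols) and the other settings (grey points), in order along the cluster; dashed lines mark 1.5-fold. miR-3070b-3p runs from -0.73 with the deposited gene total to 1.48 with the authors' table, and no other member passes a dashed line.

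The cultures carried myeloid miRNAs, as their label says. Of 6 myeloid names 5 were detected on both arrays, with miR-223-3p, a granulocyte miRNA, at 6239 with IL-6 and 6807 without it. Of 17 measured markers of other cells, both arrays detected 6 (35.3%), against 27.6% of mouse names. Of 6 stromal names 1 was detected (miR-214-5p), with a list sum of 39.7 and 39.6, and miR-143-3p, miR-145-5p and miR-199a were at or near 0. Of 3 neural names 1 was detected (miR-128-3p), its list sum being 27.3 with IL-6 and 24.3 in its absence, and miR-124-3p was near 0. Of 3 muscle names 1 was detected (miR-206-3p), with a sum of 68.7 and 57.7, and miR-1a-3p was below 0. On both arrays 1 of 2 erythroid names measured, 1 of 2 megakaryocyte or endothelial names and the 1 lymphoid name were detected, with sums of 6.88 and 9.11, 11.4 and 14.4, and 54.2 and 62.6. The part of such cells in the ratios above was not tested.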

How the data were processed

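MicroRNA was measured on 1 single-colour Agilent array per culture. The deposited scanner output holds intensities from Agilent Feature Extraction 10.7.1.1, per the file headers, that are background-subtracted and spatially detrended, with no scaling between arrays. A further table that the authors deposited is on the log2 scale, minus 1 constant per array of unknown origin. Its median was -9.60 in each column. No spot was saturated (0 on each array).

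The level of a name was the sum of its deposited total probe signals. Levels were scaled within an array to the upper quartile of the 292 names that both arrays detected. Log2 ratios set the culture with IL-6 over the one without it and had their median of 0.12 subtracted. A size rule of 1.5-fold replaced a test. The number of arrays limits precision. All detected members were named, with the 3 brightest undetected ones. Members, lists and thresholds were chosen with earlier results of these data known. miR-127-3p, miR-379-5p and miR-410-3p were named after their values were seen. Markers were matched by name, and miR-486-5p was not analysed here. Hairpins were matched to RefSeq by name or synonym. Mature sequences were matched by exact name for 91 members and by hairpin and arm for the rest of the 97 with a sequence. For 4 members no mature sequence was matched.

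Alternatives were other scalings, loess (span 0.7), quantile normalization, normexp (offset 50), mean log2 spot signal (floor 1), the gene total, the authors' table, odd or even spots, stricter detection, brighter names alone, other fold thresholds and other memberships. Keeping outlier-flagged spots, summing only probes over 3 times their error and adding 5 to each level were chosen after seeing the data. Normexp was run in limma 3.58.1 (R 4.3.3), all else in Python 3.11.15 (numpy 2.4.6, pandas 2.3.3, statsmodels 0.14.6, matplotlib 3.10.9), and the code was tested on simulated data.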

Additional observations from a re-analysis of the deposited data

How the results depend on the processing

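No paired analysis was possible because each group has 1 array. The median relative log2 ratio of the members detected on both arrays stayed above 0 under all 21 alternatives, from 0.05 after normexp to 0.28 before the median of all miRNAs was subtracted. Scaling by other single factors and leaving out outlier spots, which the deposited totals already do, repeat the reported value by construction. The count of members at least 1.5-fold higher with IL-6 was 1 and became 0 after normexp, with the gene total, with at least 20 of 40 spots well above background, among the brighter miRNAs, without the miR-3070 names and at a 2-fold threshold, and 2 at a log2 threshold of 0.32. The count at least 1.5-fold lower was 0 and became 1 with the gene total, where miR-3070b-3p reversed to -0.73 through the value of the preceding name. Of the 7 members detected on both arrays, 5 remained under stricter detection, 1 among the brighter miRNAs, 6 without the miR-3070 names and 7 with hairpins on chromosome 12 alone. miR-134-5p alone among the other 6 changed sign, to 0.03 before the median was subtracted. The share of detected mouse signal was 3.44% with IL-6 and 0.214% without it by the gene total, which for miR-1188-3p held the 5089 of miR-1187. Dim signals limit these results: 1 of the 7 members reached the median level of the miRNAs detected on both arrays.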

Other observations

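Between the first and the last hairpin of the cluster the array held 9 further mouse names that the list of numbers does not take. Of these, miR-494-3p was the 1 detected name. The others were miR-494-5p, miR-3071-3p, miR-3071-5p, miR-432, miR-453, miR-654-3p, miR-654-5p and miR-882, with signals from -2.30 to 4.64 with IL-6 and from -1.53 to 4.74 without it, the highest being miR-432 on both arrays.

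The deposited gene totals of 3 of the 10 members detected with IL-6 and 3 of the 8 detected without it exceeded the sum of their own passing probes. In all 6 cases the excess was within 1% of the gene total of the preceding detected name. The largest was miR-1188-3p with IL-6, whose total of 5096 held 6.75 of its own and the 5089 of miR-1187, and the next was miR-433-5p without IL-6, whose total of 107 held 2.63 of its own and the 105 of miR-425-5p. For miR-382-5p the totals were 25.4 and 24.1, of which 19.6 and 18.8 belonged to miR-378-3p, and for miR-485-3p with IL-6 14.7 of 21.5 belonged to miR-484. Each of these names had a probe that missed 3 times its error on the array concerned. With IL-6, miR-1197-5p also had such a probe, at 1.36 times its error, but its gene total held an excess of 0.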
